A study of Homo sapiens with 24 samples.

Results

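The heat shock proteins, the chaperonin TRiC and prefoldin are described here in HCT-116 colorectal cancer cells treated with butyrate. The 42 genes were taken by name, and they are 42 of the 27274 gene names on the array. They were measured by 58 of 34127 probes, and 41 genes with 57 probes were bright enough to be tested, among 15136 genes with 18945 probes tested in all. The gene that was not tested, HSPA1A, is described separately. The list also holds the mitochondrial chaperones HSPD1, HSPE1 and HSPA9, so it is not wholly cytosolic.

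All cells were 1 stably transfected clone of HCT-116, a human colorectal cancer line, which carries DN-Tcf4, a dominant negative Tcf4 that represses Wnt signaling, under a doxycycline-inducible vector. Ctl cells received neither agent, NaB cells 5 mM sodium butyrate, Doxy cells 4 µg/ml doxycycline, and DoxyNaB cells both, with butyrate applied for 17.5 hr. Each of the 4 treatments was measured in 6 experiments, 24 arrays in all. Butyrate, a product of fiber fermentation, is an inhibitor of histone deacetylases. NaB/Ctl gives the butyrate response without doxycycline, with Wnt signaling not repressed. The paper reports that butyrate alone strongly raised Wnt reporter activity, so NaB/Ctl changes butyrate and Wnt activity together. The paper reports little DN-Tcf4 with doxycycline alone and high levels with both agents, so DoxyNaB/Doxy changes butyrate and DN-Tcf4 together.

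Chaperones hold and fold new or damaged proteins. HSP70 proteins bind exposed stretches of a client, J-domain proteins deliver clients and start ATP hydrolysis, and BAG and HSP110 proteins release the nucleotide. HSP90 with its co-chaperones matures signaling proteins, small heat shock proteins prevent aggregation, and prefoldin passes actin and tubulin to the ring-shaped TRiC. Heat shock factors bind repeats of a short element in many chaperone promoters.

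Levels are log2 of the signal after division by each array's 75th percentile, so that 1 unit is a doubling. They compare 1 probe across arrays and do not rank different genes. A gene was called changed at a Benjamini-Hochberg adjusted p under 0.01 (limma, experiment as block), and a larger than 2-fold change was counted beside it. In bulk RNA, fewer cells of a kind and less RNA per cell cannot be told apart.

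Among arrays, 52.5% to 88.1% of spots were well above background, and the share was 78.3% to 88.1% in experiments 2 to 4 against 52.5% to 62.4% in the others. The mean of the negative controls was 248.9 on the DoxyNaB array of experiment 2 and 161 on the NaB array of experiment 3, against 48.4 to 115 on the rest. The epithelial markers KRT8, KRT18, KRT19 and CDH1 were well above background on 24 arrays and EPCAM on 22, while VIL1 was on 5. Of the markers of other cell types reported, COL3A1 was well above background on 0 arrays, and PTPRC, CD3E, PECAM1, COL1A1, DES and ALB on 11 to 24, at levels of -0.03 or lower. Their part in the results was not tested. The TCF7L2 probes checked the construct: 2 of them were higher in DoxyNaB than in NaB, by 4.46 and 2.96, and 1 was lower, by -1.25, and which of these the construct contains is not given in the sources used here. None of them passed in Doxy/Ctl, with adjusted p of 0.618 to 0.921. The probe higher by 4.46 also rose without doxycycline, by 1.90 in NaB/Ctl (adjusted p = 0.000468), where the others did not pass. In DoxyNaB/Doxy that probe rose by 6.06. AXIN2, a Wnt target, differed by -0.58 in Doxy/Ctl and by -2.53 in DoxyNaB/NaB, both past the threshold. Its butyrate changes, 1.19 in NaB/Ctl and -0.76 in DoxyNaB/Doxy, also passed.

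The promoters are shown first, because heat shock factors bind there, although matches to their element stood in a minority of these genes. RefSeq gave windows on GRCh38.p14 for 38 of the 42 genes, and the 250 bases before each start were searched on both strands. The letters GAANNTTC, 2 units facing each other, stood in windows of 15 of the 38 genes (39.5%) against 7.05% of 27305 genes, and TTCNNGAA, units facing apart, in 6 (15.8%) against 8.12%. A run of 3 units, which overlaps both, stood in 5 genes (13.2%) against 0.557%: DNAJB6, HSP90AA1, HSP90AB1, HSPA8 and HSPD1. CCAAT was found in 34.2% against 37.0%, and TATAAA in 4 of 38 against 3563 of 27305 genes. A match is a description of letters, not of binding.

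Of the genes that fell most in NaB/Ctl, BAG2 has a window with 1 facing pair, and HSPH1, HSPE1 and DNAJC7 have no match. The 6 windows below are examples that hold a match, and whether matches go with the butyrate change was not tested. They are DNAJB1 at chr19:14518398-14518647 on the minus strand, HSP90AA1 at chr14:102087045-102087294 on the minus strand, HSP90AB1 at chr6:44247693-44247942 on the plus strand, HSPA8 at chr11:123062137-123062386 on the minus strand, HSPD1 at chr2:197499841-197500090 on the minus strand, and HSPA1A at chr6:31815293-31815542 on the plus strand. Capitals mark matches to the 2-unit or 3-unit element, and each is written 5′ to 3′.
DNAJB1: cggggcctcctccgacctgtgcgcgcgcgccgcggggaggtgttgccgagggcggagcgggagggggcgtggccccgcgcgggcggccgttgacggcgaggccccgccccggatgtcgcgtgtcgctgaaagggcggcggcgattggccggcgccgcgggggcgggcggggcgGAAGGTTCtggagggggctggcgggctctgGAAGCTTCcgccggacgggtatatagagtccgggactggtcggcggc
HSP90AA1: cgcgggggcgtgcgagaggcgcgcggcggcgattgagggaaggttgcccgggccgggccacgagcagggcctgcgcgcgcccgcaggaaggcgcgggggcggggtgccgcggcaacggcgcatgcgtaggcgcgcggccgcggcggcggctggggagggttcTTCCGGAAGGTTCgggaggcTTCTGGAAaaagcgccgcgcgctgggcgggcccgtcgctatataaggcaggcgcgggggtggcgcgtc
HSP90AB1: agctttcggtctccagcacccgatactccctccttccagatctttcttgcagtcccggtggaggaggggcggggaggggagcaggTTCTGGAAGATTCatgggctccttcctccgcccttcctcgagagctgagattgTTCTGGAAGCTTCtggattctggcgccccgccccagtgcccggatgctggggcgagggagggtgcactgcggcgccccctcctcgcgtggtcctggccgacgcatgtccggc
HSPA8: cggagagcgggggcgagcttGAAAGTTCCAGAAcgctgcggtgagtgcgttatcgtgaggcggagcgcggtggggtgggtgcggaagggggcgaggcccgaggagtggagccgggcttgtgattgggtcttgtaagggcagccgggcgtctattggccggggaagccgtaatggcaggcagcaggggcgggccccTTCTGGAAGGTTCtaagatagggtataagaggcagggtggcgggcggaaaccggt
HSPD1: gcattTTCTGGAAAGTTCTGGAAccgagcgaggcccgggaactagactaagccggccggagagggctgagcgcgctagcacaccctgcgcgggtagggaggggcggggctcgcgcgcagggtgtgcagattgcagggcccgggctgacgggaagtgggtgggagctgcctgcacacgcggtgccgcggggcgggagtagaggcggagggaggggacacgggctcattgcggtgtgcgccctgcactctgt
HSPA1A: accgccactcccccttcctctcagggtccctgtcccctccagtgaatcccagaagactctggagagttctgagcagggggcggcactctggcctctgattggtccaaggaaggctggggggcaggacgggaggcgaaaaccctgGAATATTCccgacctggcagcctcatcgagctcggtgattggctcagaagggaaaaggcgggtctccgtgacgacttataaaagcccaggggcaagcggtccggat

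The window shown for DNAJB1 holds 2 facing pairs. HSP90AA1 and HSP90AB1, the inducible and the constitutive HSP90, both hold a 3-unit run in the windows shown. DNAJB1, HSP90AA1, HSP90AB1 and HSPD1 also have other RefSeq starts, and the windows of those hold no match. The windows of HSPA1A and HSPA1B share 235 of 251 aligned positions (93.6%).

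Most of these genes were lower with butyrate. The list was chosen with earlier results of these data known, so the shares set beside it are a description, not a test. In NaB/Ctl, 29 of 41 fell, against 29.0% of all genes tested, and 2 rose, against 40.7%. Over 2-fold, 10 fell and 1 rose, where 11.5% of all genes fell and 21.0% rose. The median log2 change of the 41 genes was -0.54, while that of all genes tested was 0.17. The shares of all genes include genes bright enough only with butyrate, and the genes that fell include CCT5, which passed the filter only without it. With only probes well above background on all 24 arrays, the NaB/Ctl median of all probes was 0.09 and that of the listed genes -0.52. Without a filter these medians were 0.69 and -0.54. With doxycycline, DoxyNaB/Doxy, 25 fell against 30.3% of all genes and 5 rose against 38.1%. There 8 fell over 2-fold and 1 rose, against 12.5% and 18.7% of all genes, with a median of -0.51 against 0.11. Both comparisons called 26 genes in common. The share of all genes called in both was not computed, and each comparison called most genes tested. The counts depended on how arrays were scaled: in NaB/Ctl, 20 fell and 1 rose with normexp, 27 and 5 with quantile normalization and 35 and 1 with median scaling, and over 2-fold 6 to 29 fell. In DoxyNaB/Doxy, 23 to 30 fell and 1 to 4 rose under these scalings. Without the 2 arrays of brightest negative controls, where 42 genes were tested, 29 fell and 3 rose in NaB/Ctl and 26 fell and 7 rose in DoxyNaB/Doxy. The genes that rose there include HSPA1A, described with its levels. It passed the filter only through butyrate groups in which it was high, so its counting is no support for a rise.

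**Figure D1:**
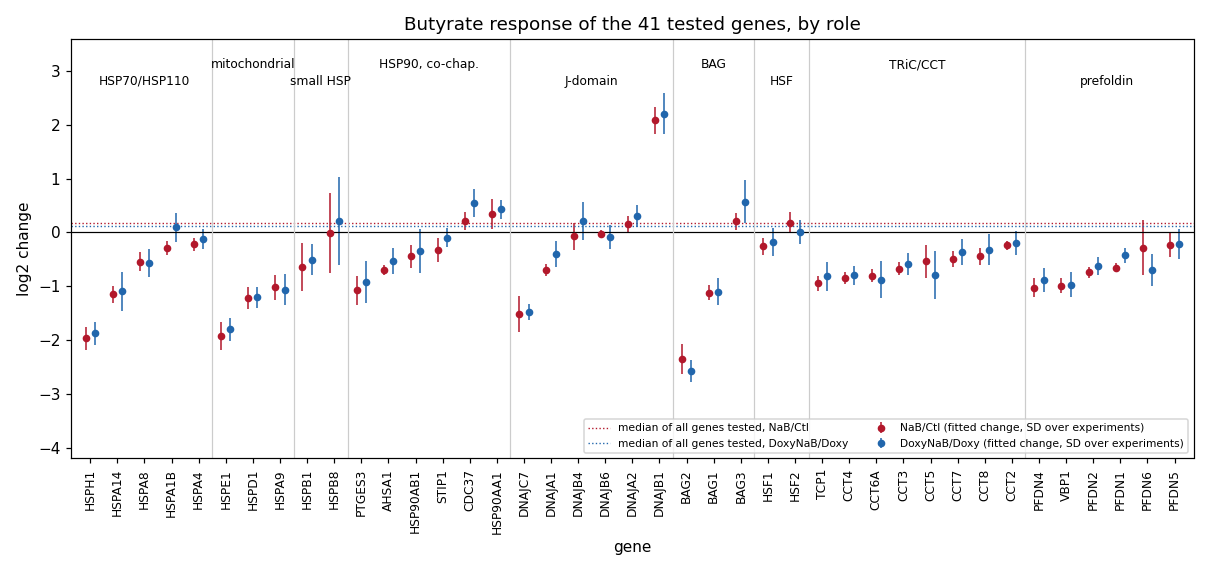
Log2 change of each of the 41 tested genes under butyrate without (red) and with doxycycline (blue), grouped by role, as the fitted change with the SD over 6 experiments (5 where a spot was left out). Dotted lines give the medians of all genes tested, 0.17 and 0.11. DNAJB1 stands at 2.08 and 2.20, and BAG2 is lowest at -2.35 and -2.58.

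All 5 tested HSP70 and HSP110 genes outside mitochondria were called lower in NaB/Ctl, and 3 of 5 in DoxyNaB/Doxy. With normexp background correction or quantile normalization, 3 of 5 were lower in NaB/Ctl. HSPH1, the HSP110 that exchanges nucleotide on HSP70, lay at 3.08, 3.19 and 3.31 (lowest, median and highest) in Ctl and at 0.88, 1.28 and 1.43 in NaB. In Doxy it lay at 2.88, 2.97 and 3.14 on 5 arrays, and in DoxyNaB at 0.91, 1.14 and 1.504. The groups did not overlap, with a log2 change of -1.97 ± 0.09 (SE, adjusted p = 2.41e-12), 3.92-fold, and -1.87 ± 0.09 (5.14e-12). Its second probe gave -1.90 and -1.70. HSPA14, a ribosome-associated HSP70, fell by 1.15 ± 0.11 and by 1.10 ± 0.11.

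HSPA8, the constitutive HSP70, fell by 0.54 ± 0.09 and by 0.57 ± 0.09, but its second, dimmer probe gave -0.13 and -0.17, neither of which passed. HSPA4 fell by 0.22 ± 0.07 in NaB/Ctl, and was -0.12 in DoxyNaB/Doxy, which did not pass. Quantile normalization put HSPA4 at 0.01 in NaB/Ctl.

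The near-identical stress-inducible genes HSPA1A and HSPA1B gave different readings. HSPA1B lay at 4.71, 5.01 and 5.24 in Ctl and at 4.40, 4.74 and 5.02 in NaB, and the groups overlapped. Its change was -0.29 ± 0.09 (adjusted p = 0.00775), and 0.09 ± 0.09 in DoxyNaB/Doxy (0.358). Leaving out the 2 arrays with the brightest negative controls moved the latter to 0.20 (0.0075), higher. Under normexp neither change passed. The HSPA1A probe was dim. It was well above background on 3 Ctl, 5 NaB, 2 Doxy and 5 DoxyNaB arrays, so it entered no main test. It lay at -5.22, -4.92 and -4.80 in Ctl and -4.88, -3.21 and -2.66 in NaB, and at -5.75, -5.56 and -5.13 in Doxy and -4.74, -3.47 and -2.36 in DoxyNaB. Its lowest butyrate values were on the 2 arrays with the brightest negative controls. Without them it passed the filter through butyrate groups in which it was high, so no change is given. Since the copies share sequence, the level of either gene is uncertain.

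All 3 mitochondrial chaperones fell over 2-fold in both comparisons, and in every scaling tried all 3 were called lower. HSPE1, the HSP10 lid of the mitochondrial chaperonin, lay at 5.59, 5.73 and 6.41 in Ctl and at 3.59, 3.85 and 4.37 in NaB. With doxycycline it lay at 5.49, 5.59 and 6.30 without butyrate and at 3.59, 3.85 and 4.46 with it. These groups were far apart, at -1.93 ± 0.09 (adjusted p = 7.38e-13) and -1.80 ± 0.09 (1.71e-12). HSPD1, the HSP60 barrel under that lid, lay at 6.25, 6.54 and 6.64 in Ctl and at 4.99, 5.24 and 5.54 in NaB, without overlap. It fell by 1.22 ± 0.08 and by 1.21 ± 0.08. HSPA9, the mitochondrial HSP70, fell by 1.02 ± 0.10 and by 1.06 ± 0.10.

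**Figure D2:**
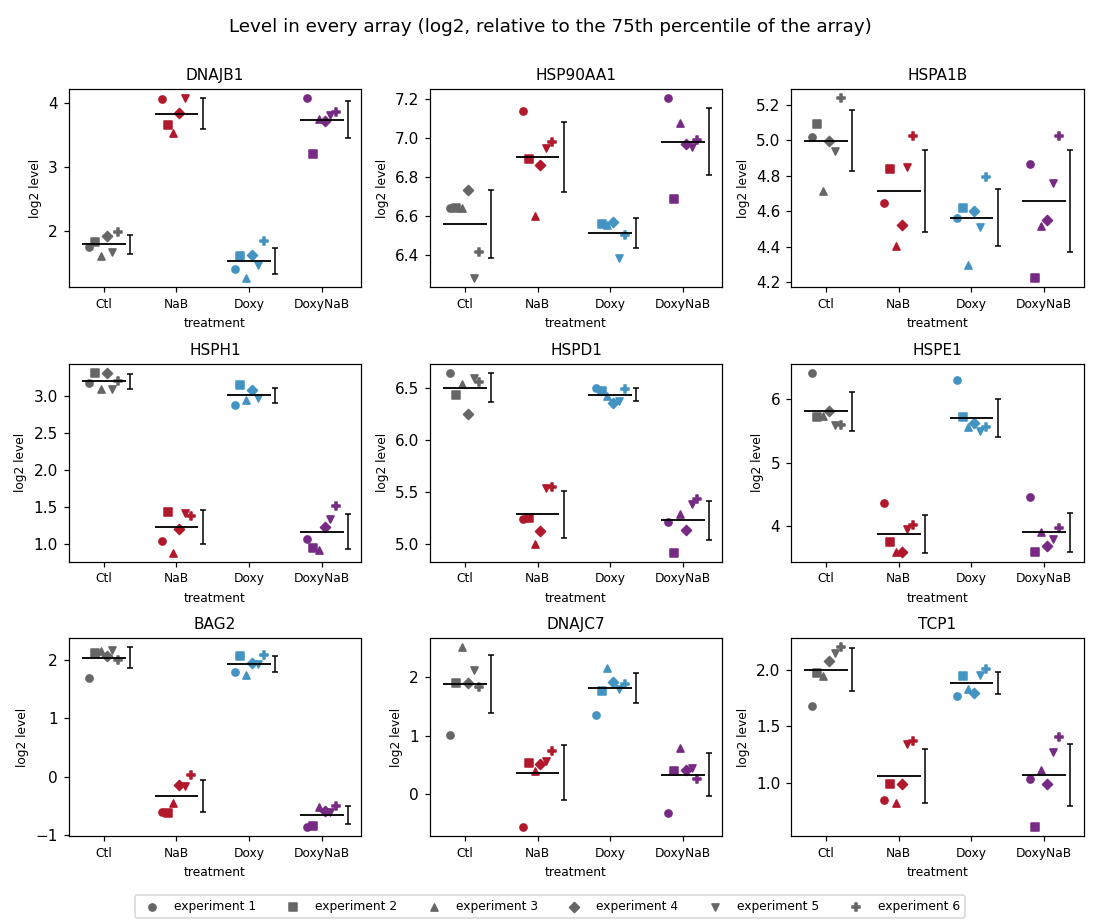
Log2 level of 9 genes on every array by treatment, 1 marker shape per experiment, with the mean (line) and SD (bar to the right). A flagged spot leaves 1 NaB array of DNAJB1, 1 Doxy array of HSP90AA1 and 1 Doxy array of HSPH1 empty. Butyrate separates DNAJB1, HSPH1, HSPD1, HSPE1, BAG2, DNAJC7 and TCP1 into non-overlapping groups with and without doxycycline, whereas the HSPA1B groups overlap. The HSP90AA1 groups overlap only without doxycycline. The share of all genes whose groups do not overlap was not computed.

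Of the small heat shock proteins, HSPB1 (HSP27) fell and HSPB8 did not pass, at 0.00 ± 0.27 and 0.21 ± 0.27. The 2 HSPB1 probes disagreed in size. On NCBI36, the probe at chr7:75771486-75771545 gave -0.64 ± 0.14 and -0.51 ± 0.14, and the one at chr7:75769860-75769919 gave -1.81 ± 0.10 and -1.74 ± 0.10. The first of them did not pass under normexp in NaB/Ctl or under quantile normalization in DoxyNaB/Doxy.

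HSP90AA1, the inducible cytosolic HSP90, lay at 6.28, 6.64 and 6.74 in Ctl and at 6.60, 6.92 and 7.14 in NaB, with overlap. In Doxy it lay at 6.38, 6.55 and 6.57 on 5 arrays, and in DoxyNaB at 6.68, 6.98 and 7.20, without overlap. It rose by 0.34 ± 0.10 (adjusted p = 0.00413) and by 0.43 ± 0.11 (0.00148), and its 2 further probes gave 0.37 to 0.53, but scaling to the array median turned it to -0.41 and -0.17. The NaB/Ctl call of HSP90AA1 was also lost with normexp (0.016), slide as block (0.0309), the mean over probes (0.0393), no filter (0.011), only the arrays compared (0.021) and the paired t-test (0.0403). It was lost without experiment 1 (0.0122), 5 (0.0297) or 6 (0.0268), and in experiments 2 to 4 alone the change was 0.11 (0.474). The DoxyNaB/Doxy call was lost with normexp (0.155), only the arrays compared (0.0272), the paired t-test (0.0113) and experiments 2 to 4 (0.0709). HSP90AB1 fell by 0.45 ± 0.11 (adjusted p = 0.00175), and its change of -0.35 ± 0.11 with doxycycline missed the threshold (0.0109). Its second probe gave -0.51 and -0.42, both called.

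Co-chaperones of HSP90 split. PTGES3, the p23 that holds HSP90 closed, fell by 1.08 ± 0.11 and by 0.93 ± 0.11. AHSA1, which stimulates its ATPase, fell by 0.69 ± 0.07 and by 0.53 ± 0.07. STIP1, which links HSP70 to HSP90, fell by 0.32 ± 0.08 and was -0.10 with doxycycline. CDC37, which brings kinases to HSP90, was 0.21 ± 0.09 in NaB/Ctl, which did not pass, and rose by 0.54 ± 0.09 with doxycycline, though scaling to the array median gave -0.02.

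Among J-domain proteins, DNAJB1 had the highest change of the 41 tested genes. DNAJB1, the HSP40 that partners cytosolic HSP70, lay at 1.59, 1.78 and 1.98 in Ctl and at 3.52, 3.84 and 4.07 on 5 NaB arrays. In Doxy it lay at 1.25, 1.53 and 1.84 and in DoxyNaB at 3.21, 3.77 and 4.07. Every butyrate array was above every array without butyrate. The change was 2.08 ± 0.11 (adjusted p = 2.88e-11), 4.24-fold, and 2.20 ± 0.11 (1.11e-11), 4.61-fold. DNAJC7, a co-chaperone of HSP70 and HSP90, fell by 1.51 ± 0.11 and by 1.48 ± 0.11. Within single experiments its NaB/Ctl change lay between -2.11 and -1.08. DNAJA1, another cytosolic HSP40, fell by 0.70 ± 0.08 and by 0.40 ± 0.08. DNAJA2, its relative, was 0.15 ± 0.07 and did not pass, and rose by 0.31 ± 0.07 with doxycycline, although quantile normalization gave -0.05 and median scaling -0.25. DNAJB4 and DNAJB6 passed in neither comparison by their brightest probe. A dimmer DNAJB6 probe was called higher in NaB/Ctl, at 0.35 ± 0.11 (adjusted p = 0.0095), and its 0.34 with doxycycline was not called (0.0108).

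BAG2, which inhibits the HSP70-bound ubiquitin ligase CHIP, had the lowest change of the 41 genes. It lay at 1.69, 2.09 and 2.17 in Ctl, at -0.62, -0.31 and 0.04 in NaB, at 1.74, 1.94 and 2.09 in Doxy and at -0.86, -0.60 and -0.49 in DoxyNaB. Its change was -2.35 ± 0.09 (adjusted p = 1.29e-13), 5.11-fold, and -2.58 ± 0.09 (3.86e-14), 5.96-fold. BAG1 fell by 1.12 ± 0.08 and by 1.10 ± 0.08, with 3 probes between -1.13 and -0.98. BAG3, which serves selective autophagy, was 0.21 ± 0.12 in NaB/Ctl, which did not pass, and rose by 0.57 ± 0.12 with doxycycline. Median scaling put the latter at 0.02 (adjusted p = 0.956), and it was not called with the paired t-test (0.0268), in experiments 2 to 4 (0.0503) or in experiments 5 and 6 (0.0108).

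The heat shock factors did not pass by their brightest probes. HSF1, the main stress-activated factor, was -0.26 ± 0.09 (adjusted p = 0.015) and -0.18 ± 0.09 (0.085). A dimmer HSF1 probe passed with doxycycline, at -0.36 ± 0.08 (0.000679). HSF2 was 0.18 ± 0.08 (0.0443) and 0.00 ± 0.08 (0.96). These are mRNA levels, and factor activity was not measured.

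All 8 genes of the chaperonin TRiC were called lower in NaB/Ctl, with a median of -0.60, and 7 of 8 in DoxyNaB/Doxy, with a median of -0.69. No change exceeded 2-fold. TCP1 had the lowest change in NaB/Ctl at -0.94 ± 0.09, followed by CCT4 at -0.85 ± 0.06 and CCT6A at -0.80 ± 0.11, and CCT2 changed least, by -0.24 ± 0.07. CCT4 lay at 4.74, 4.82 and 5.01 in Ctl and at 3.84, 3.93 and 4.28 in NaB, without overlap. CCT2 lay at 5.18, 5.25 and 5.45 in Ctl and at 4.88, 5.02 and 5.27 in NaB, with overlap. The second TCP1 probe gave -0.07 and -0.11 and passed in neither. Quantile normalization and median scaling called all 8 lower in NaB/Ctl, and normexp called 4. CCT5, counted among the 8 and the 7, was measured by a dim probe, well above background on 22 arrays. These were 6 Ctl, 5 NaB, 6 Doxy and 5 DoxyNaB arrays. It passed the filter only through the groups without butyrate, where it was higher, so its calls are no support for a fall. Normexp put its DoxyNaB/Doxy change at 0.08.

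The 6 prefoldin genes had medians of -0.70 and -0.66, with 4 called lower in NaB/Ctl and 5 in DoxyNaB/Doxy. PFDN4 lay at 2.19, 2.41 and 3.01 in Ctl and at 1.13, 1.42 and 1.96 in NaB, and fell by 1.03 ± 0.08. VBP1 (prefoldin 3) lay at 1.64, 1.92 and 2.03 in Ctl and at 0.73, 0.88 and 1.04 in NaB, and fell by 0.99 ± 0.09. PFDN2 fell by 0.74 ± 0.07 and PFDN1 by 0.66 ± 0.07. PFDN5 was -0.24 ± 0.09 and -0.21 ± 0.09, and passed in neither. PFDN6 was -0.29 ± 0.14 in NaB/Ctl, which did not pass, and fell by 0.70 ± 0.14 with doxycycline.

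The next comparisons ask whether doxycycline altered these genes or their butyrate response. By limma, 0 of 41 were called in Doxy/Ctl, DoxyNaB/NaB or the interaction (the NaB/Ctl change minus the DoxyNaB/Doxy change), where 0.555%, 2.73% and 1.36% of all genes were. At an unadjusted p under 0.05 there were 12, 5 and 5 of 41, where 13.3%, 16.1% and 12.6% of all genes were. The methods' paired t-test after adjustment called 1, 0 and 0. The 95% intervals of the interaction are plotted for all 41 genes, and a missed threshold does not show that the responses were alike.

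**Figure D3:**
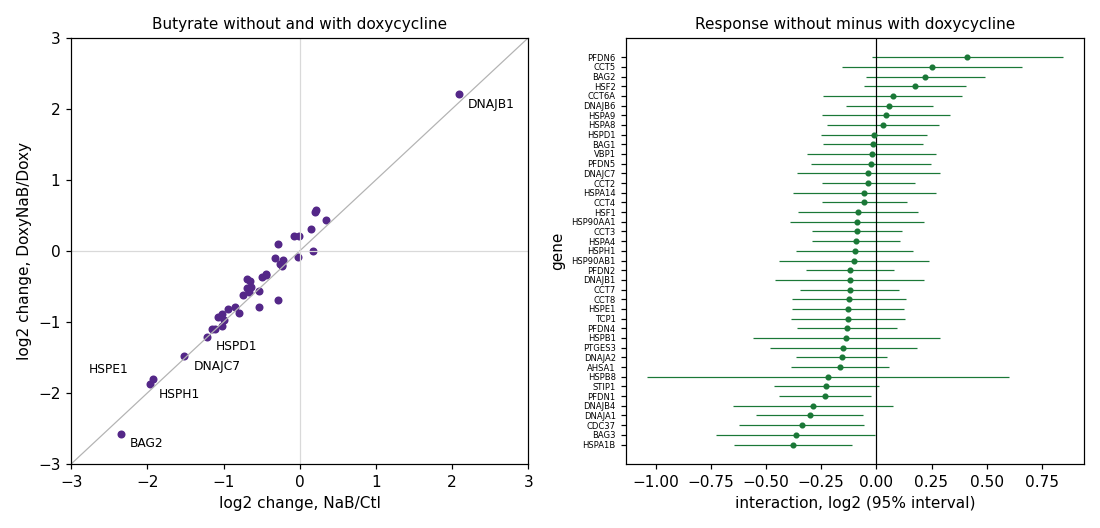
Left, log2 change of the 41 genes in NaB/Ctl against DoxyNaB/Doxy, with the line of equality. Right, the interaction with its 95% interval, where HSPA1B is lowest at -0.38 and PFDN6 highest at 0.41.

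HSPA1B came nearest the threshold in Doxy/Ctl, at -0.44 ± 0.09 (adjusted p = 0.021), lower in 6 of 6 experiments. It lay at 4.30, 4.58 and 4.79 in Doxy, which overlapped Ctl. The call was made with quantile normalization (0.00324), with the Doxy and Ctl arrays alone (0.0094), without the 2 arrays (0.000513) and without experiment 2 (0.00417). Its interaction was -0.38 ± 0.13 (0.172), and -0.48 without the 2 arrays (0.00468). In DoxyNaB/NaB, PFDN2 was 0.26 ± 0.07 (0.0284) and BAG2 -0.33 ± 0.09 (0.046).

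Of 69 further chaperone genes listed, 56 were tested. In NaB/Ctl 21 rose (37.5%), against 40.7% of all genes tested, and 21 fell (37.5%), against 29.0%. Over 2-fold, 8 rose (14.3%) and 7 fell (12.5%), against 21.0% and 11.5% of all genes, and the median was 0.00 against 0.17. HSPA2, the testis-enriched HSP70, rose by 2.29 ± 0.13 and HSPA12A by 1.41 ± 0.08. DNAJB2, a neuronal J-domain protein, rose by 1.23 ± 0.06 without and by 1.70 ± 0.06 with doxycycline, and its interaction passed (-0.47 ± 0.09, adjusted p = 0.00642). CCT6B, a testis form of a TRiC subunit, and DNAJB13 are counted among the 21 and the 8, but passed the filter only through NaB. CCT6B was well above background on 2 Ctl, 6 NaB, 5 Doxy and 5 DoxyNaB arrays and DNAJB13 on 3, 6, 3 and 5, so no change is given for either. DNAJC9, a histone chaperone, fell by 1.85 ± 0.11, the ribosome-associated DNAJC2 by 1.71 ± 0.14, CACYBP by 1.37 ± 0.08, the HSP90 immunophilin FKBP4 by 1.11 ± 0.08 and DNAJA4 by 1.10 ± 0.08.

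The scaling of the arrays moved the changes of these genes and of all others. The median of all probes tested in NaB/Ctl was 0.17 in the main setting, 0.07 with normexp, -0.09 with quantile normalization and -0.58 with median scaling. Below that median lay 36, 35, 32 and 36 of the 41 genes in the same order. In DoxyNaB/Doxy the counts were 34, 34, 27 and 34.

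**Figure D4:**
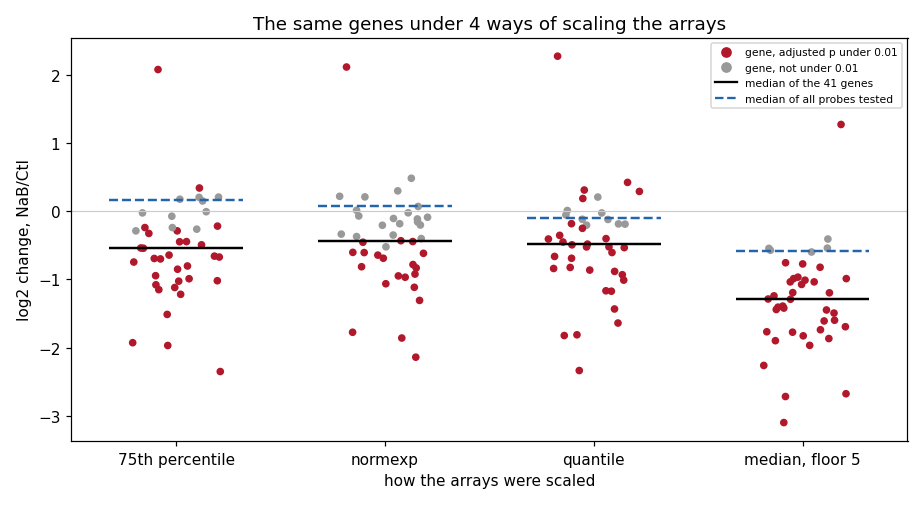
Log2 change of the 41 genes in NaB/Ctl under 4 ways of scaling the arrays (points, red where the adjusted p was under 0.01), with the median of the genes (black) and of all probes tested (dashed). The median of the genes lies below that of all probes in each, at -0.54, -0.43, -0.48 and -1.29. HSP90AA1, above 0 in the first column, lies at -0.41 with median scaling.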

How the data were processed

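The deposited files, written per the file headers by Agilent Feature Extraction 9.5.3.1, hold spot intensities on NCBI36 probes; the authors' processed signal intensity was background-corrected and detrended within the array, and not scaled between arrays. Control spots and outlier-flagged spots (359 to 795 per array) were dropped, spots of a probe averaged, and log2 taken relative to the 75th percentile of each array (380.2 to 1323). The paper's methods name a paired test.

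Probes that the software called well above background in the 6 experiments of some treatment, with at least 4 values per treatment, were fitted with limma 3.58.1 in R 4.3.3 (all 24 arrays, treatment and experiment), with Benjamini-Hochberg adjustment over 18945 probes. Where a gene had several probes, the brightest on average stood for it. The fit was tested on simulated data: its estimates were unbiased, but noisy probes were missed, so a gene that did not pass is not shown to be unchanged. Levels centred on their treatment correlated within experiments at r = 0.219 to 0.851, with 1 pair of 36 at -0.217; in experiments 2 to 6 the arrays share a slide, and in experiment 1 slide and butyrate cannot be told apart.

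The members and lists were chosen with earlier results of these data known. The further pathway genes named were the 5 highest and 5 lowest in NaB/Ctl. Promoter windows came from RefSeq (GRCh38.p14). Plots and tables used matplotlib 3.10.9, pandas 2.3.3 and numpy 2.4.6 in Python 3.11.15. The alternatives tried are given in the closing section. The 6 experiments are biological replicates per the paper. The limma p-values rest on the spread left after treatment and experiment are fitted. That spread is shared by the 4 treatments and drawn toward that of other probes. Signal over background limits precision. 1 item of the marker list is not reported here.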

Additional observations from a re-analysis of the deposited data

Results flagged for a closer look

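In 7 of 60 groups of 6 arrays, 1 array stood apart from its group (chance gives about 1 in 20). On arrays of experiment 1, the level of HSPE1 was 6.411 in Ctl (next 5.811) and 6.296 in Doxy (next 5.724), PFDN4 was 3.014 in Ctl (next 2.458), HSPA9 was 2.553 in Doxy (next 2.856) and DNAJC7 was -0.5659 in NaB (next 0.3981). HSPA14 was 0.361 on the DoxyNaB array of experiment 2 (next 1.002), and HSPA1A was -4.878 on the NaB array of experiment 3 (next -3.436); these 2 arrays had the brightest negative controls. The part of slide, scan or background in these values was not tested.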

How the results depend on the processing

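In NaB/Ctl, the 29 genes that fell became 17 in experiments 5 and 6 alone, and 24 to 29 when 1 experiment was left out. The 2 that rose became 1 with normexp, median scaling, slide as block, only the arrays compared, the methods' paired t-test, experiments 2 to 4 or the mean over probes, 5 with quantile normalization and 0 with the filter on all 24 arrays, which drops DNAJB1 and HSP90AA1 for a flagged spot, and 1 to 4 when 1 experiment was left out (4 without experiment 3). The 10 that fell over 2-fold became 6 with normexp, 29 with median scaling and 6 in experiments 5 and 6 (8 to 11 leaving 1 out). The 1 that rose over 2-fold became 0 with that filter and 2 without a filter or the 2 arrays of brightest negative controls (1 to 2 leaving 1 out). The second was HSPA1A, dim without butyrate. Without the 2 arrays it passed the filter only through butyrate groups in which it was high, so its counting is no support for a rise. In DoxyNaB/Doxy, the 25 that fell became 15 in experiments 5 and 6 (23 to 26 leaving 1 out). The 5 that rose became 1 with median scaling or experiments 2 to 4, 3 with the 24-array filter or only the arrays compared, and 2 with the paired t-test or experiments 5 and 6 (5 to 6 leaving 1 out). The 8 over 2-fold became 21 with median scaling (6 to 10 leaving 1 out), and the 1 that rose over 2-fold became 0 with the 24-array filter and 2 without a filter or the 2 arrays (1 to 2 leaving 1 out).

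In Doxy/Ctl, 0 genes became 1 (HSPA1B) with quantile normalization, only the arrays compared, the paired t-test, without the 2 arrays and at 0.05 (0 to 1 leaving 1 out, 1 without experiment 2). In DoxyNaB/NaB, 0 became 2 at 0.05 (0 leaving 1 out), and in the interaction 1 without the 2 arrays (0 leaving 1 out). Directions turned for HSPA4 (0.0125) and DNAJB6 (0.189) in NaB/Ctl and DNAJA2 (-0.053) in DoxyNaB/Doxy with quantile normalization, for HSP90AA1 (-0.406 and -0.167 in the 2 butyrate comparisons), DNAJA2 (-0.25) and CDC37 (-0.0158) with median scaling, and for CCT5 (0.0825) with normexp. Where no value shows it, the cause was not tested.

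Without the replicate block that pairs the arrays of an experiment, 25 genes fell and 2 rose in NaB/Ctl, 23 fell and 4 rose in DoxyNaB/Doxy, and 0, 0 and 0 were called in Doxy/Ctl, DoxyNaB/NaB and the interaction; over 2-fold, 10 and 8 fell and 1 and 1 rose in the 2 butyrate comparisons.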
